A study of Mus musculus with 8 samples.

Results

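The genes described here are 10 regulators of fat cell formation: Pparg, Cebpa, Cebpb, Cebpd, Ebf1, Ebf2, Klf15, Zfp423, Gata2 and Dlk1. They were chosen by symbol from the 32285 genes listed in a single-cell RNA-seq data set of the stromal vascular fraction (SVF) of mouse inguinal white fat, and all 10 symbols were found. The SVF is the pellet of non-floating cells left after fat is digested with collagenase, and holds progenitors, vessel cells and leukocytes. The study compared C57BL/6 mice with free access to food (Ad-Lib) with mice fed in 2 nightly windows (TAN), with 4 libraries in each group, labelled here Ad-Lib 1, 3, 5 and 7 and TAN 2, 4, 6 and 8. No genetic change or drug is named for either group, and the mice are given as 8 weeks old, although the study's methods describe older males kept on the schedules for months, so the age is uncertain. The study names the substrain as C57BL/6J. The tissue was taken after the first of the feeding windows. The labels do not say whether each library is 1 animal, but the study's text treats them as separate mice. The p-values below set the difference between groups against the spread between these libraries.

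Adipogenesis runs as a relay of transcription factors. C/EBPβ and C/EBPδ (Cebpb, Cebpd) are switched on first by hormones such as glucocorticoids and by cAMP, and they induce PPARγ (Pparg) and C/EBPα (Cebpa), which then keep each other on and drive the genes of the mature fat cell. EBF1 and EBF2 act beside them in the adipose lineage, KLF15 promotes PPARγ expression and answers to glucocorticoids, ZFP423 marks commitment of preadipocytes, and GATA2 and DLK1 hold differentiation back.

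Unique molecular identifiers (UMIs, which count captured RNA molecules) were summed per library in 5 cell classes, and a level is given as CPM, the gene's UMIs scaled by the summed UMIs of that class in that library. Since each level is a share of the UMIs of a class, and each library holds a different number of cells, a lower level cannot be told apart from fewer expressing cells in the class. The libraries held 44427 barcodes and 232345333 UMIs, between 25320800 and 37140950 UMIs each, and 252 barcodes occurred in more than 1 library. After filtering, 36370 cells were kept, of which 15658 fell in the 5 classes: 3444 Dpp4+ progenitors, 3367 Icam1+ progenitors, 913 F3+ progenitors, 6968 endothelial cells and 966 adipocyte-rich droplets. A further 2795 progenitors, 1363 in Ad-Lib and 1432 in TAN, were given no subset name and were left out of the tests. The named subsets held more Ad-Lib than TAN cells, with 2112 and 1332 Dpp4+, 2153 and 1214 Icam1+ and 546 and 367 F3+ progenitors. In TAN 6, 608 progenitors had no subset name. The part of these cells in the results was not tested. Classes were named from marker genes, with none of the 10 regulators among the markers or the genes used for clustering, so each name means cells like that type. The adipocyte-rich droplets carried all 7 adipocyte markers, at 46746 CPM summed in TAN and 52978 CPM in Ad-Lib, but had a median of only 952 to 1094 UMIs per droplet, against 9763 to 10889 in Ad-Lib Dpp4+ progenitors. Floating fat cells are removed when SVF is made, so these droplets are not taken to stand for the mature adipocytes of the depot. Before filtering, the median mitochondrial share per library was 1.79% to 2.54% in Ad-Lib and 2.80% to 4.24% in TAN, without overlap, and its part in the results was not tested. The F3+ progenitors of TAN 6 were shallow, with a median of 1562 UMIs.

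The genes were first compared between the 5 classes. The clusters were built from the same cells, so the order of classes is a description without a test.

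Pparg, the nuclear receptor that fat cells need, was highest in adipocyte-rich droplets. There it read 325, 292, 254 and 388 CPM in Ad-Lib 1, 3, 5 and 7, and 255, 328, 161 and 382 CPM in TAN 2, 4, 6 and 8. In endothelial cells it read 139, 153, 235 and 154 CPM in Ad-Lib, and 187, 160, 176 and 150 CPM in TAN. The ranges of these 2 classes overlapped, and 7 of 8 libraries had the higher level in the droplets. Icam1+ progenitors, the committed preadipocyte-like subset, held 33.2 to 44.6 CPM, F3+ progenitors 3.43 to 15.2 CPM and Dpp4+ progenitors, the least committed subset, 1.17 to 3.43 CPM. All 8 libraries placed Icam1+ cells above F3+ cells and F3+ cells above Dpp4+ cells, although the ranges of the last pair overlapped.

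Cebpa, the partner of PPARγ in the mature cell, was more restricted. It read 514, 525, 675 and 749 CPM in the adipocyte-rich droplets of Ad-Lib, and 288, 346, 416 and 538 CPM in those of TAN. In Icam1+ progenitors it lay between 32.0 and 61.2 CPM, in endothelial cells between 16.1 and 35.0 CPM, in F3+ progenitors between 10.9 and 39.0 CPM and in Dpp4+ progenitors between 6.45 and 10.1 CPM. The droplets did not overlap any of the other 4 classes in range. Neighbours further down the order overlapped, apart from the F3+ and Dpp4+ progenitors.

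The early factors ran in another order. Cebpd was highest in F3+ progenitors, at 953, 1100, 840 and 1340 CPM in Ad-Lib and 915, 1140, 769 and 1140 CPM in TAN, and its range there overlapped that of Icam1+ progenitors. Its lowest levels were in adipocyte-rich droplets, at 32.8 to 311 CPM, and endothelial cells, at 111 to 274 CPM, with no steady order between them. The mean of Ad-Lib was higher in the droplets (211 against 163 CPM), that of TAN in endothelial cells (190 against 80.7 CPM), and endothelial cells were the higher class in 3 of 8 libraries. Cebpb was spread more evenly, from a mean of 413 CPM in Dpp4+ progenitors to 228 CPM in Icam1+ progenitors, and neighbouring classes in that stretch overlapped. Endothelial cells, at a mean of 87.3 CPM, lay below all of them without overlap with Icam1+ progenitors.

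Of these 5 classes, the EBF factors had their highest means in Dpp4+ progenitors. Ebf1, which B cells also need, averaged 548 CPM in Dpp4+, 503 in Icam1+ and 405 in F3+ progenitors, 320 in endothelial cells and 156 in adipocyte-rich droplets, and each neighbouring pair overlapped. Ebf2, which directs brown and beige fat identity, stepped down from 229 to 339 CPM in Dpp4+ progenitors to 117 to 193 CPM in Icam1+ progenitors without overlap. It was at 103 to 164 CPM in F3+ progenitors, 0 to 44.1 CPM in the droplets and 1.24 to 4.55 CPM in endothelial cells. Its single 0, from TAN 4, came from a class sum so small that up to 14.0 CPM would be compatible with it (3 counts, counting error only).

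Klf15 and Zfp423 were low. Klf15 read 27.1, 58.4, 36.3 and 88.2 CPM in the Ad-Lib droplets and 65.0, 84.3, 40.2 and 77.7 CPM in the TAN droplets, which rests on 2 to 18 UMIs per library. All 8 libraries had less Klf15 in F3+ progenitors, at 3.64 to 26.3 CPM. Zfp423 averaged between 8.38 CPM in endothelial cells and 20.8 CPM in the droplets, and every neighbouring pair of classes overlapped. In Dpp4+ progenitors the Ad-Lib libraries read 13.2 to 14.0 CPM and the TAN libraries 11.1 to 17.6 CPM.

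Among these 5 classes, the inhibitors had their highest means in different classes. Gata2 was highest in endothelial cells, at 56.7, 65.9, 97.4 and 86.3 CPM in Ad-Lib and 79.6, 69.1, 99.0 and 94.0 CPM in TAN. In the 3 progenitor classes it did not exceed 4.49 CPM in a library, and in the droplets it was found in 3 of 8 libraries. Dlk1, also called preadipocyte factor 1, was present in F3+ progenitors at 0, 22.0, 49.1 and 25.3 CPM in Ad-Lib and 90.7, 2.18, 13.8 and 26.0 CPM in TAN. It was at 0 in the droplets of all 8 libraries, where a count of 0 allows up to 13.9 to 40.6 CPM. Within the F3+ class, the cluster led by Mfap4, Lgr5 and Cilp held Dlk1 at 0, 74.2, 257 and 25.7 CPM in Ad-Lib and at 71.4 and 92.5 CPM in TAN 6 and TAN 8, the TAN libraries with at least 10 cells there. The cluster led by Clec11a held it at 0, 0, 0 and 24.7 CPM in Ad-Lib and 40.9, 2.58, 0 and 0 CPM in TAN. The libraries thus did not share one pattern, with Ad-Lib 1 at 0 in both clusters and Ad-Lib 7 at like levels in both, and the 257 CPM of Ad-Lib 5 came from 15 cells.

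**Figure D1:**
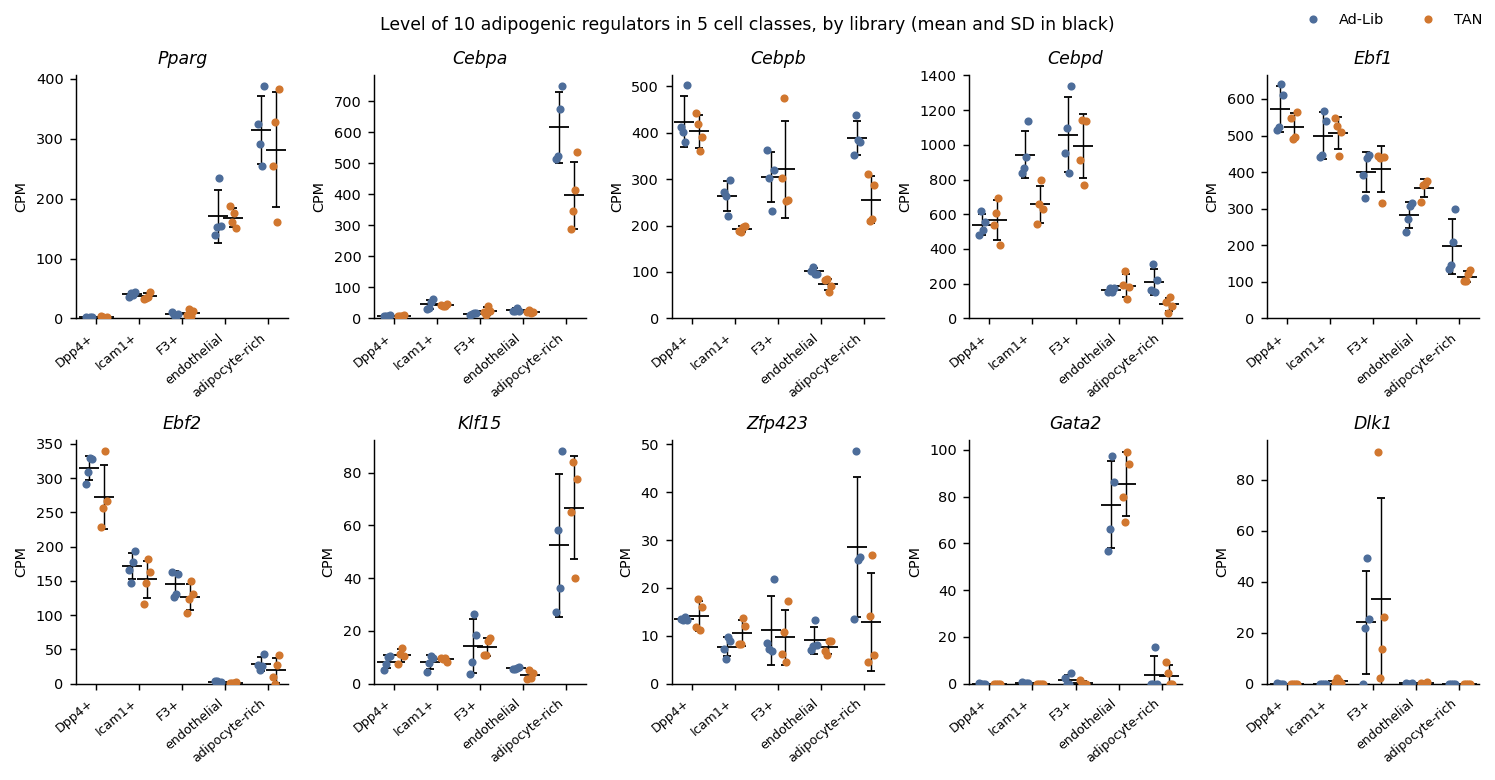
Level of each gene (CPM, linear axis from 0) in 5 cell classes. Points are the 4 Ad-Lib (blue) and 4 TAN (orange) libraries, with the mean and SD in black. Cebpa is set apart in adipocyte-rich droplets and Gata2 in endothelial cells, Dlk1 has its highest mean in F3+ progenitors, where its range overlaps that of Icam1+ progenitors, and Ebf2 steps down from Dpp4+ progenitors.

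Outside these classes, several of the genes were far higher in other cells. Gata2 read 1111 to 1342 CPM in the 5 libraries with enough mast cells, and Cebpb 2116 to 3319 CPM in the 5 libraries with enough neutrophils. Ebf1 read 1016 to 1414 CPM in mural cells, the pericytes and smooth muscle of vessels, and 208 to 1396 CPM in B cells. Cebpa reached 79.5 to 123 CPM in macrophages, which is above each progenitor class. Mural cells also held Pparg at 114 to 177 CPM, Ebf2 at 96.9 to 155 CPM and Dlk1 at 8.06 to 56.2 CPM.

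**Figure D2:**
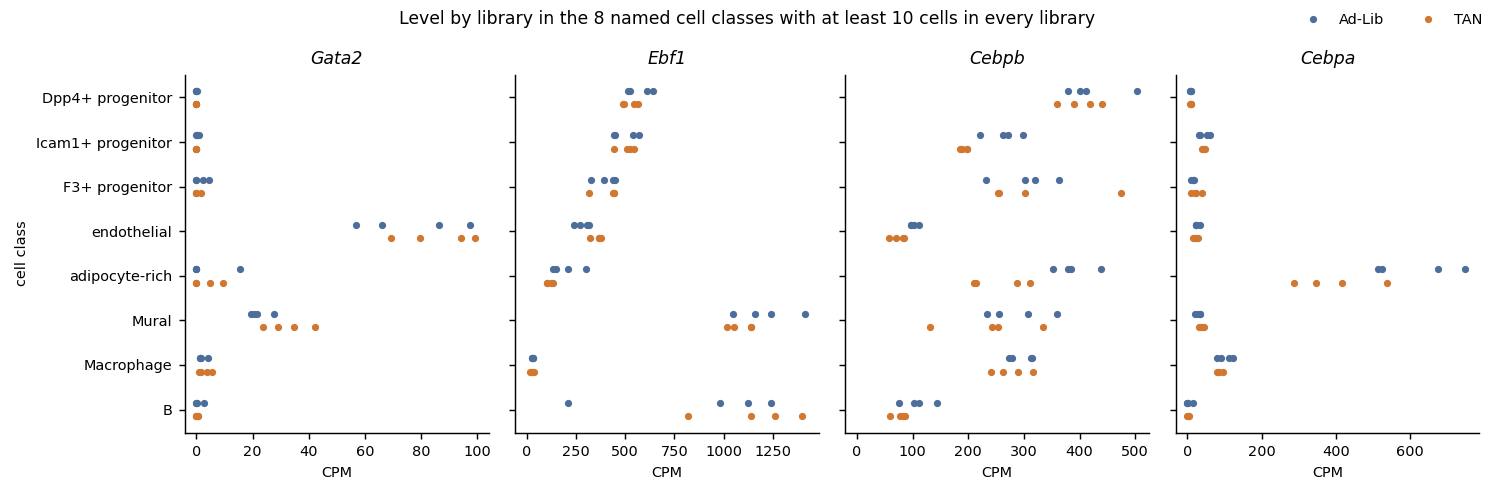
Level (CPM, linear axis) of 4 genes in the 8 named cell classes that had at least 10 cells in every library. Points are libraries, blue for Ad-Lib and orange for TAN. Ebf1 is highest in mural and B cells, and Cebpa in adipocyte-rich droplets.

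To show how common each gene was, cells were thinned to 2000 UMIs and the share with at least 1 UMI was taken. Ebf1 was seen in 61.7% of Dpp4+ and 60.3% of Icam1+ progenitors, Cebpd in 50.1% and 58.4%, and Ebf2 in 41.8% and 26.9%. Pparg was seen in 0.399% of Dpp4+ progenitors, 7.33% of Icam1+ progenitors and 28.0% of endothelial cells. In T cells, which should lack most of these genes, the share with Pparg was 0% to 0.614% in 6 libraries and 3.91% in Ad-Lib 7, which held only 12 T cells. The same library stood apart for Ebf1, at 5.18% against 0% to 1.01%, for Cebpd, at 5.18% against 0% to 1.58%, and for Cebpb, at 25.1% against 5.18% to 13.3%. The mean over these 7 libraries was 0.0240% for Ebf2 and 0.171% for Cebpa, at median depths of 4184 to 6642 UMIs before thinning. The Pparg share of Dpp4+ progenitors was 0.233% to 0.501% in 7 libraries, within the range of the 6 T cell libraries, and 0.736% in TAN 2, above it.

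The genes whose log2(CPM + 1) followed each regulator most closely were sought across the 40 sums of 5 classes and 8 libraries. These points share libraries and classes, so they are not independent. Cebpa went with Cat (catalase, Pearson's r = 0.975), Ebf2 with Vasn (r = 0.974) and Dpt (r = 0.960), Gata2 with Scarf1 (r = 0.973) and the endothelial factor Sox18 (r = 0.966), and Dlk1 with Pappa2 (r = 0.863). Dpt is also among the markers by which progenitors were named. Zfp423 had no close match, with Wrb nearest at r = 0.698. Among the regulators themselves the highest value was that of Cebpd with Ebf2 (r = 0.798) and the lowest that of Ebf2 with Gata2 (r = -0.852). These values are descriptions over 40 sums, chosen as the highest of 8543 genes.

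The genes lie apart on the genome (GRCm38, GENCODE M21). Cebpb is at chr2:167688915-167690418, Cebpa at chr7:35119293-35121928, Cebpd at chr16:15887286-15891031, Ebf1 at chr11:44617317-45008091, Ebf2 at chr14:67233292-67430918 and Dlk1 at chr12:109452823-109463336, all on the plus strand. Pparg at chr6:115360951-115490399, Klf15 at chr6:90462576-90475238 and Gata2 at chr6:88193891-88207032 share chromosome 6, on the plus strand, and Zfp423 is at chr8:87661810-87959595 on the minus strand. Promoter windows from RefSeq (GRCm38.p6, 250 bases before to 50 after a gene start) were found for 8 of the 10 genes. The 4 windows below include those of Cebpb and Cebpa, which were called in the feeding test. Cebpd and Ebf1 were called too, but Cebpd and Ebf2 had no window and the 2 windows of Ebf1 are not printed. The others are of Pparg at its most downstream start, which was not called, and of Klf15, which held the most E-boxes. The windows are at chr2:167688665-167688964 for Cebpb, chr7:35119043-35119342 for Cebpa, chr6:115421816-115422115 for Pparg and chr6:90462326-90462625 for Klf15, all on the plus strand. Capitals mark matches on either strand to the E-box CACGTG, to the cAMP response element core TGACG, to the CCAAT box, to the TATA box TATAA and to the C/EBP-like letters TTGCNNAA.
Cebpb: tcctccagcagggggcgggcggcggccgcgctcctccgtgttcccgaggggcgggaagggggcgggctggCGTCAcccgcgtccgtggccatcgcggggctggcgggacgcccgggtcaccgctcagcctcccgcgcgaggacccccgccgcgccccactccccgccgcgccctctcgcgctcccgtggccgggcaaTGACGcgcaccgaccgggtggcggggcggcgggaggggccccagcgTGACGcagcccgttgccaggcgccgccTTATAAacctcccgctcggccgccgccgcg
Cebpa: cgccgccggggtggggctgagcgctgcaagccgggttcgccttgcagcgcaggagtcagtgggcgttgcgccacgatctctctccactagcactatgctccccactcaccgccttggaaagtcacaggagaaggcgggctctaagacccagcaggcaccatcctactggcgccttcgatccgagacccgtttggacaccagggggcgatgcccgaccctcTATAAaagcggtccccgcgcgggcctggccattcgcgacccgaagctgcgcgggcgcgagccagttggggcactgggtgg
Pparg: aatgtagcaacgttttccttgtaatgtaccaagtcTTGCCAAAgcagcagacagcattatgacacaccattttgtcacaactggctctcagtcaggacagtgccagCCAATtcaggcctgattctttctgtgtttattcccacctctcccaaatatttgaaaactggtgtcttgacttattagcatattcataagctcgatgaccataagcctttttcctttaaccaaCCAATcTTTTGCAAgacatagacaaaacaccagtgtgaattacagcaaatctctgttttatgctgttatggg
Klf15: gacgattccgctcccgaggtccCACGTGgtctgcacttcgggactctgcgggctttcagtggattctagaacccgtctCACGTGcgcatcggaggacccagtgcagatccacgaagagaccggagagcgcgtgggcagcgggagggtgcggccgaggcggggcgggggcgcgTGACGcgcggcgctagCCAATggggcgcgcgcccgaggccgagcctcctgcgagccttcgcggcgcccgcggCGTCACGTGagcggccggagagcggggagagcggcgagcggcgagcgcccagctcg

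The Cebpb window held 3 matches to TGACG and 2 overlapping matches to TATAA on opposite strands, which are 1 stretch of sequence. The Cebpa window held 1 TATAA and none of the others. The Pparg window held 2 CCAAT and 2 C/EBP-like matches, and the Klf15 window held 3 E-boxes, 2 TGACG, of which 1 overlaps an E-box, and 1 CCAAT. Among 32851 promoter windows of the same length, 7.15% held an E-box, 20.8% TGACG, 37.4% CCAAT, 24.9% TATAA and 10.8% the C/EBP-like letters. A match describes the letters and is not a known binding site.

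Whether TAN feeding changed the level of these genes was asked in each class with edgeR's quasi-likelihood test over all genes, adjusted by Benjamini-Hochberg, and a gene was called at an adjusted p under 0.05 and a 1.5-fold change. Log2 changes are TAN against Ad-Lib with their SE, so that negative values are lower in TAN. Of the 10 genes, 4 were called, all lower in TAN and all in adipocyte-rich droplets, and none in the other 4 classes. Only 5 of the 10 were tested in the droplets, where 9.16% of 1780 genes were called and 5.73% were called lower. In the other classes 0.0547% to 2.25% of genes were called. Below the 1.5-fold limit, Cebpb and Cebpd were lower in Icam1+ progenitors and Ebf1 was higher in endothelial cells.

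**Figure D3:**
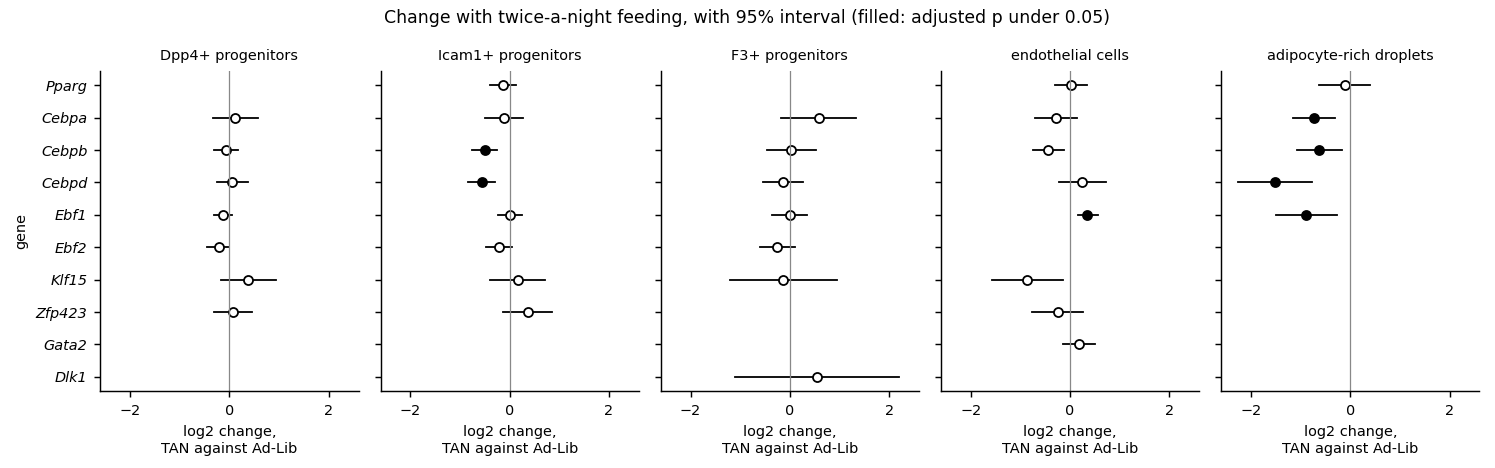
Log2 change of each tested gene, TAN against Ad-Lib, in 5 cell classes. Points are edgeR estimates, lines their 95% intervals, filled points have an adjusted p under 0.05, and genes under the count filter have no point. The filled points are Cebpb and Cebpd in Icam1+ progenitors, Ebf1 in endothelial cells, and Cebpa, Cebpb, Cebpd and Ebf1 in adipocyte-rich droplets.

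In adipocyte-rich droplets Cebpd, the early hormone-induced factor, fell the most. It read 162, 311, 150 and 220 CPM in Ad-Lib and 97.5, 32.8, 121 and 71.7 CPM in TAN. All 4 TAN libraries lay below all 4 Ad-Lib libraries, and the log2 change was -1.51 ± 0.30 (edgeR, adjusted p = 0.000728). These levels rest on 7 to 32 UMIs per library.

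Cebpb, its partner in the early step, read 352, 438, 384 and 379 CPM in Ad-Lib and 311, 211, 215 and 287 CPM in TAN. Again the groups did not overlap, and the log2 change was -0.62 ± 0.19 (edgeR, adjusted p = 0.0243). Ebf1 read 135, 146, 208 and 300 CPM in Ad-Lib and 102, 103, 121 and 131 CPM in TAN. These groups were separate too, but Ad-Lib 1 and TAN 8 were only a few CPM apart, and the log2 change was -0.89 ± 0.25 (edgeR, adjusted p = 0.0178).

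Cebpa, whose values stand above, overlapped between groups through TAN 8 at 538 CPM, and its log2 change was -0.73 ± 0.17 (edgeR, adjusted p = 0.0051). Pparg did not pass the test, with a log2 change of -0.11 ± 0.21 (edgeR, adjusted p = 0.819) and an interval from -0.62 to 0.40. The difference between the changes of Cebpa and Pparg was not tested.

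Only 5 of the 10 genes passed the count filter in this class, and the filter can keep a gene through the group where it is higher, so the 4 calls among the 5 are not evidence about the other 5. Of all 1780 genes tested in this class, 9.16% were called and 5.73% were called lower. The groups did not overlap for 3 of the 5, against 13.4% of all genes, and 4 of the 5 had an unadjusted p under 0.05, against 22.3%. Klf15, Ebf2, Zfp423, Gata2 and Dlk1 were not tested there, with at most 18 UMIs in a library.

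Cebpd was called in all 17 alternatives, with log2 changes from -1.77 to -1.21 and adjusted p from 0.000177 to 0.00974. The calls of the other 3 genes were lost in some of them, all at changes in the same direction. DESeq2 called Cebpa and Cebpd, with a log2 change of -0.57 for Cebpb and -0.81 for Ebf1. Without the filter on low counts, and with marker gates in place of clusters, Cebpd alone was called. A finer clustering called Cebpb and Cebpd, in a class that held 1704 droplets in place of 966. There the log2 change was -0.50 for Cebpa (edgeR, adjusted p = 0.129) and -0.46 for Ebf1 (edgeR, adjusted p = 0.193). With a mitochondrial limit of 20%, Ebf1 was lost (-0.71 ± 0.24, edgeR, adjusted p = 0.0574).

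Cebpb was lost without Ad-Lib 1 (-0.62, edgeR, adjusted p = 0.0523), Ad-Lib 3 (-0.54, 0.105), Ad-Lib 7 (-0.65, 0.0561), TAN 4 (-0.53, 0.108) or TAN 6 (-0.55, 0.0787). Ebf1 was lost without Ad-Lib 7 (-0.67, edgeR, adjusted p = 0.141), TAN 2 (-0.86, 0.0578) or TAN 4 (-0.85, 0.0546).

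Other signals in the droplets moved with the group. The 6 pan-progenitor markers, which include Pdgfra, Dcn and Col1a1, summed to 3454 to 4655 CPM in Ad-Lib and 1840 to 2593 CPM in TAN, without overlap, against 44991 to 54693 CPM in Ad-Lib Icam1+ progenitors. The 15 immediate early genes, which tissue dissociation induces, summed to 6196 to 9178 CPM in Ad-Lib and 2682 to 3838 CPM in TAN, and 11 of the 12 tested were called lower, led by Zfp36 (-1.69 ± 0.17), Jun (-1.30 ± 0.15), Fosb (-2.05 ± 0.26) and Fos (-1.09 ± 0.16). The sum of 9 glucocorticoid-induced genes fell from 973 to 1437 CPM in Ad-Lib to 370 to 617 CPM in TAN, mostly through the metallothionein Mt2, which averaged 525 ± 115 CPM without and 126 ± 87.9 CPM with TAN feeding (SD, n = 4 each). The 7 adipocyte markers overlapped, at 49706 to 56351 CPM in Ad-Lib and 39922 to 54412 CPM in TAN. The part of these signals in the lower Cebpd, Cebpb, Cebpa and Ebf1 was not tested.

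**Figure D4:**
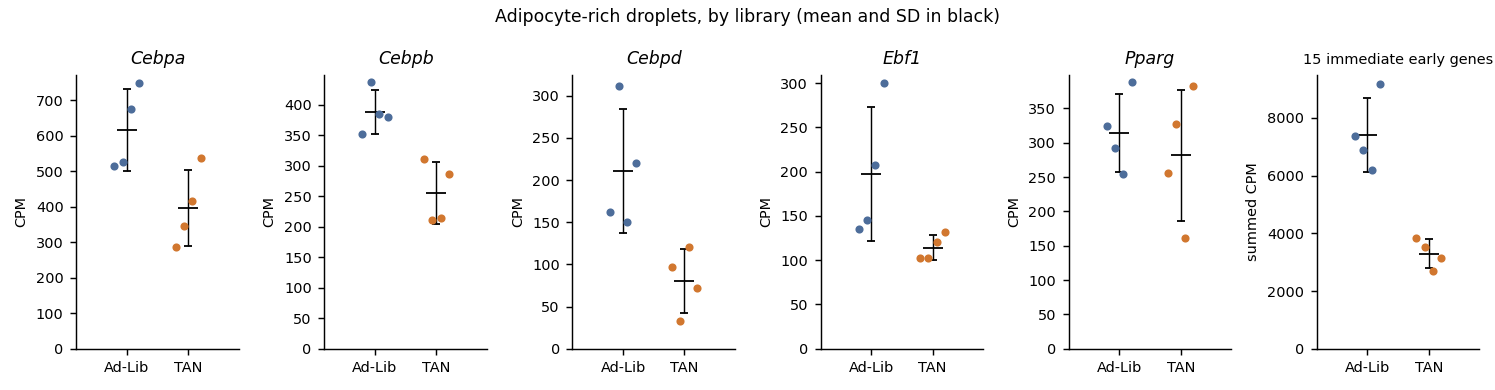
Adipocyte-rich droplets: level (CPM) of the 5 tested regulators and the summed CPM of 15 immediate early genes, on linear axes from 0. Points are libraries, blue for Ad-Lib and orange for TAN, with the mean and SD in black. Cebpb, Cebpd and Ebf1 and the immediate early sum do not overlap between groups, while Cebpa and Pparg do.

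Genes that PPARγ and C/EBPα switch on did not follow one direction in these droplets. Of 18 tested, 3 were called higher and 3 lower, with a median log2 change of -0.23 against 0 over all genes. Fabp5, a fatty acid carrier, rose from 241 ± 56.6 to 903 ± 175 CPM (log2 change 1.84 ± 0.18), and the triglyceride synthesis enzyme Agpat2 from 464 ± 156 to 1210 ± 139 CPM (1.29 ± 0.16). Pck1, which makes glycerol phosphate and glucose in fasting, fell from 1090 ± 126 to 490 ± 151 CPM (log2 change -1.22 ± 0.17), and the lipid droplet protein gene Plin4 from 1560 ± 191 to 852 ± 137 CPM (-0.92 ± 0.14; SD, n = 4 each). Of 7 other activators of adipogenesis tested, 1 was called, Klf9, which glucocorticoids induce, which averaged 249 ± 69.7 CPM without and 75.9 ± 26.8 CPM with TAN feeding (log2 change -1.75 ± 0.28), and the median was -0.58. None of 3 repressors, 2 BMP pathway genes or 1 PPARG coregulator tested was called by edgeR, and none of these 6 had an unadjusted p under 0.05.

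In Icam1+ progenitors no gene met both limits, with edgeR or DESeq2, while 1.88% of the 10787 genes tested did. Cebpb read 272, 263, 222 and 297 CPM in Ad-Lib and 188, 185, 197 and 198 CPM in TAN. All TAN libraries were below all Ad-Lib libraries and close together, and the log2 change was -0.50 ± 0.10 (edgeR, adjusted p = 0.0117). Cebpd read 840, 868, 930 and 1140 CPM in Ad-Lib and 541, 659, 799 and 631 CPM in TAN. The groups were again separate, with a log2 change of -0.56 ± 0.11 (edgeR, adjusted p = 0.00815). The change of Cebpd passed the 1.5-fold limit without Ad-Lib 1 (-0.59), TAN 4 (-0.59), Ad-Lib 5 (-0.60) or TAN 6 (-0.65) and with the finer clustering (-0.63), and that of Cebpb without Ad-Lib 5 (-0.60).

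The other 6 tested genes overlapped between groups in these cells. Pparg read 35.7, 41.8, 39.5 and 44.3 CPM in Ad-Lib and 33.2, 34.9, 36.2 and 44.6 CPM in TAN, with an interval of the log2 change from -0.40 to 0.12. Cebpa had an interval from -0.49 to 0.26, and Ebf1 from -0.24 to 0.24. Changes of Pparg or Ebf1 beyond 1.5-fold thus lie outside their 95% intervals. Of the 8 tested, 2 passed an adjusted p of 0.05 without a minimum fold, both lower in TAN, where 2.21% of all genes were lower by that rule. The same 2 were the ones whose groups did not overlap, against 8.93% of all genes, and the ones with an unadjusted p under 0.05, against 16.1%.

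The feeding groups drew on different cells within this class. A cluster led by Cldn15, H2-Q10 and Epor held 48.4% ± 10.3 of the Icam1+ cells in Ad-Lib and 77.5% ± 6.91 in TAN (SD, n = 4 libraries), and one led by Egr3, Lrrtm3 and Col4a3 held the rest. These clusters were drawn from expression in the same cells, so their sizes are given as the makeup of the class and not as a result. Cebpd in the Egr3-led cluster read 1092, 1035, 1229 and 1222 CPM in Ad-Lib and 1241, 1335, 1155 and 1004 CPM in TAN, which overlap, with a log2 change of 0.05 ± 0.11 (edgeR, adjusted p = 0.941). In the Cldn15-led cluster it read 527, 695, 710 and 967 CPM in Ad-Lib and 375, 502, 599 and 525 CPM in TAN, where only Ad-Lib 1 lay within the range of TAN, with a log2 change of -0.57 ± 0.14 (edgeR, adjusted p = 0.0372). Cebpb changed by -0.40 ± 0.11 in the Cldn15-led cluster (edgeR, adjusted p = 0.0625) and by -0.21 ± 0.12 in the Egr3-led one (adjusted p = 0.605).

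With a mitochondrial limit of 20% in place of 10%, a cluster of 1118 cells led by Hsd11b2, Olfm2 and H2-Q10 stayed unnamed, the class held 426 TAN cells in place of 1214, and the log2 changes were -0.12 ± 0.11 for Cebpb and -0.10 ± 0.11 for Cebpd (edgeR, adjusted p = 0.767 and 0.820). With marker gates at the same 20% limit, which held 1672 Ad-Lib and 876 TAN cells, they were -0.42 ± 0.11 and -0.47 ± 0.10 (edgeR, adjusted p = 0.0417 and 0.0172). The cause of the difference between these settings was not tested.

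**Figure D5:**
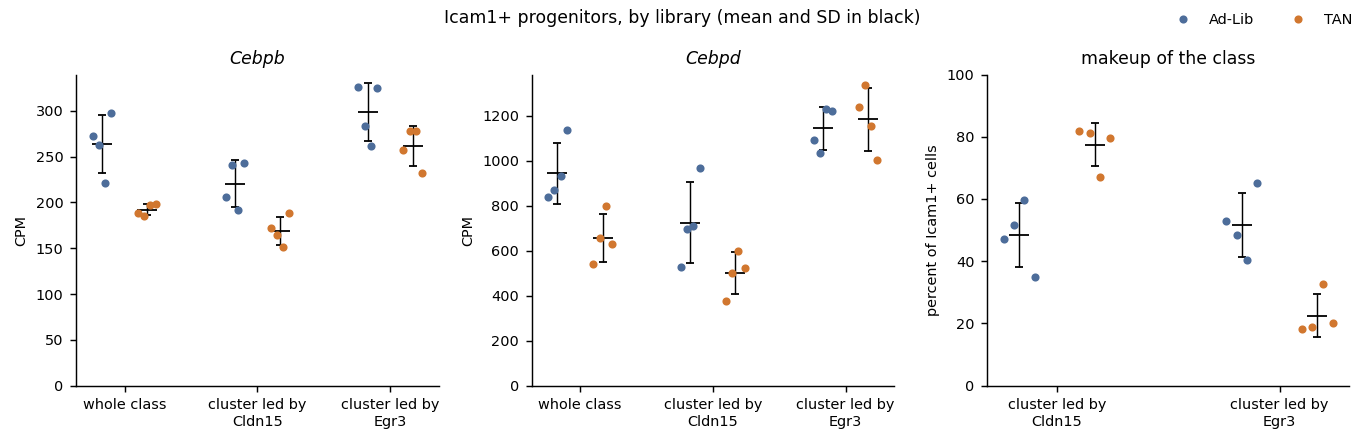
Icam1+ progenitors: Cebpb and Cebpd (CPM, linear axis from 0) in the whole class and in its 2 clusters, and the percent of Icam1+ cells in each cluster. Points are libraries, blue for Ad-Lib and orange for TAN, with the mean and SD in black. Cebpd overlaps between groups within the cluster led by Egr3, which holds fewer of the TAN cells.

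Other lists moved in Icam1+ progenitors as well. Of 9 glucocorticoid-induced genes, 5 were called lower, among them Errfi1 (-0.83 ± 0.09), Mt2 (-1.64 ± 0.19), the clock gene Per1 (-0.90 ± 0.12) and Dusp1 (-0.69 ± 0.13), with a median of -0.79 against 0.01 over all genes. Of 15 immediate early genes, 6 were called lower, led by Fosb (-0.64 ± 0.09), Hspa1a (-0.78 ± 0.13), Egr1 (-0.60 ± 0.10) and Dnajb1 (-0.91 ± 0.18), and their sum ran from 26960 to 33134 CPM in Ad-Lib and from 21441 to 24679 CPM in TAN. Their part in the lower Cebpb and Cebpd was not tested. Klf4 (-0.74 ± 0.12) and Klf9 (-0.73 ± 0.12), which act early in adipogenesis beside the C/EBP genes, were called lower, and Mlxipl, the carbohydrate-responsive factor ChREBP, was called higher (1.24 ± 0.31), so that 3 of 17 other activators were called.

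The PPARγ targets Fabp4 and Cd36 were called higher in Icam1+ progenitors. Fabp4 rose from 436 ± 104 to 1540 ± 446 CPM and Cd36, a fatty acid transporter, from 21.4 ± 3.85 to 88.6 ± 24.1 CPM (SD, n = 4 each), the only 2 called of 11 targets tested, with a median of 0.25. Both are also abundant in adipocytes and endothelial cells. The 7 adipocyte markers summed to 36.7 to 97.7 CPM in Ad-Lib and 65.5 to 94.9 CPM in TAN, which overlap, as did the 8 endothelial markers, at 7.56 to 15.5 and 9.70 to 12.7 CPM. Bmp4 (-1.07 ± 0.20) and Id1 (-0.90 ± 0.20) were the 2 called of 12 BMP pathway genes, and Klf2 (-0.71 ± 0.14), a repressor of Pparg, the 1 called of 16 repressors. None of 12 PPARG coregulators had an adjusted p under 0.05 by edgeR, and 2 had an unadjusted p under 0.05.

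In endothelial cells no gene met both limits, with edgeR or DESeq2, against 2.25% of 10859 genes. Ebf1 read 237, 272, 308 and 315 CPM in Ad-Lib and 319, 365, 367 and 376 CPM in TAN. All TAN libraries were higher, by a narrow margin between Ad-Lib 7 and TAN 2, and the log2 change was 0.35 ± 0.08 (edgeR, adjusted p = 0.0288). It was the 1 of 8 tested genes higher at an adjusted p under 0.05 without a minimum fold, a rule that 2.02% of all genes met. Leaving out 1 library gave adjusted p values from 0.0274 to 0.0721, and 6 of 8 were above 0.05, those without Ad-Lib 1, Ad-Lib 3, TAN 2, TAN 4, TAN 6 or TAN 8.

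Cebpb read 102, 111, 96.7 and 96.2 CPM in Ad-Lib and 82.3, 84.0, 56.9 and 69.4 CPM in TAN. The groups did not overlap, but the log2 change of -0.44 ± 0.13 missed the threshold (edgeR, adjusted p = 0.072). Klf15 read 5.71, 5.56, 6.15 and 6.29 CPM in Ad-Lib and 1.85, 5.05, 2.17 and 4.10 CPM in TAN. These groups were separate as well, with a log2 change of -0.86 ± 0.29 (edgeR, adjusted p = 0.118), which passed only without TAN 4 (-1.19 ± 0.29, adjusted p = 0.036) and with the finer clustering (-1.47 ± 0.38, adjusted p = 0.0423). Ebf1, Cebpb and Klf15 were the 3 of 8 genes without overlap, against 10.1% of all genes, and also the 3 with an unadjusted p under 0.05, against 18.3%.

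Pparg did not differ detectably in endothelial cells, with a log2 change of 0.02 ± 0.13 and an interval from -0.31 to 0.34, and Gata2, which endothelial cells use for their own identity, had an interval from -0.15 to 0.50. Within the cluster led by Aqp1 and Aplnr, which held 62.8% ± 3.70 of endothelial cells in Ad-Lib and 48.2% ± 1.88 in TAN, Ebf1 changed by 0.36 ± 0.09 (edgeR, adjusted p = 0.0293). In the cluster led by Sema3g and Hey1, which held 32.9% ± 3.66 and 46.6% ± 2.87, it changed by 0.20 ± 0.11 (edgeR, adjusted p = 0.420). In the small cluster led by Plvap and Selp, which held 4.30% ± 0.390 and 5.19% ± 1.68, it changed by 0.00 ± 0.17 (edgeR, adjusted p = 1). Pan-progenitor markers were at 242 to 366 CPM in Ad-Lib and 142 to 190 CPM in TAN, the 8 endothelial markers at 8483 to 9537 and 7772 to 8140 CPM, and neither sum overlapped between groups. Their part in these differences was not tested.

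Among the pathway lists in endothelial cells, 4 PPARγ and C/EBPα targets were called higher and 1 lower of 20 tested, with a median of 0.25 against 0 over all genes. Agpat2 rose from 22.2 ± 5.18 to 64.6 ± 16.2 CPM and Dgat2, the last step of triglyceride synthesis, from 23.9 ± 4.62 to 39.5 ± 6.61 CPM, while Pck1 fell from 32.9 ± 7.72 to 18.5 ± 2.41 CPM (SD, n = 4 each). Agpat2 and Pck1 were far higher in adipocyte-rich droplets, and the adipocyte marker sum ranged from 1834 to 2555 CPM in Ad-Lib and from 1271 to 3000 CPM in TAN. Of 10 BMP pathway genes, Id1 (0.89 ± 0.15) and Id3 (0.80 ± 0.10) were called higher and Smad1 (-0.82 ± 0.09) lower. Of 9 glucocorticoid-induced genes, Mt2 (-1.77 ± 0.16), Per1 (-1.45 ± 0.16) and Cdkn1a (-1.34 ± 0.22) were called lower. Egr2 (-1.04 ± 0.24) was the 1 call among 16 other activators, and 0 of 15 repressors were called while 2 had an adjusted p under 0.05. By edgeR 0 of 15 immediate early genes and 0 of 10 coregulators had an adjusted p under 0.05, and 4 and 0 an unadjusted one.

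The log2 changes of Ebf1 had opposite signs in endothelial cells, where it was not called, and in adipocyte-rich droplets. Taken within each library as a difference of log2(CPM + 1) between the classes, its change with feeding differed by -1.06 ± 0.21 (droplets minus endothelial cells), which missed the threshold (limma, adjusted p = 0.0846). None of the 5 genes tested passed in this comparison, against 0.393% of 1780 genes, and 2, Ebf1 and Cebpd, had an unadjusted p under 0.05, against 14% of genes.

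In Dpp4+ progenitors no gene met both limits, with edgeR or DESeq2, against 0.722% of 10524 genes. None of the 7 tested was free of overlap between groups, against 5.2% of all genes, and 1 had an unadjusted p under 0.05, against 11.1%. That gene was Ebf2, at 292, 310, 330 and 328 CPM in Ad-Lib and 229, 256, 339 and 266 CPM in TAN. TAN 6 was the highest of all 8 and the other 3 TAN libraries were the lowest, so that the log2 change was -0.22 ± 0.09 (edgeR, adjusted p = 0.339) and -0.32 ± 0.08 without TAN 6 (adjusted p = 0.0407).

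The early factors did not separate the groups in Dpp4+ progenitors. Cebpb read 412, 401, 380 and 503 CPM in Ad-Lib and 441, 419, 360 and 391 CPM in TAN, with an interval of the log2 change from -0.32 to 0.17. Cebpd read 479, 617, 511 and 557 CPM in Ad-Lib and 537, 609, 696 and 423 CPM in TAN, with an interval from -0.26 to 0.37. Changes of 1.5-fold or more in either gene lie outside these intervals. Immediate early genes overlapped between groups in this class, with sums of 13016 to 18987 CPM in Ad-Lib and 13785 to 17065 CPM in TAN, and by edgeR 0 of 15 had an adjusted or an unadjusted p under 0.05. Calls in the other lists were Angptl4 (-1.59 ± 0.34) of 11 PPARγ targets, Bmp4 (-0.73 ± 0.15) of 12 BMP genes and the glucocorticoid-induced kinase gene Sgk1 (-0.82 ± 0.14) of 9, and there were 0 calls by edgeR among 10 coregulators, 16 other activators and 17 repressors, of which 1, 4 and 3 had an unadjusted p under 0.05.

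Whether Cebpb and Cebpd responded differently in the 2 progenitor subsets was tested within libraries. The change of Cebpd in Icam1+ minus that in Dpp4+ progenitors was -0.61 ± 0.16 (limma, adjusted p = 0.221), and that of Cebpb was -0.41 ± 0.12 (limma, adjusted p = 0.24). Neither passed, and 7 of 10059 genes (0.0696%) did, so a difference between the subsets was not shown. These 2 of the 7 tested had an unadjusted p under 0.05, against 12.6% of genes. Between Icam1+ and F3+ progenitors 1 of 6, Cebpb, had one (-0.49 ± 0.22, limma, adjusted p = 0.655), against 7.6% of genes, and between Dpp4+ and F3+ progenitors 0 of 6, against 7.11%. In both of these comparisons 0% of genes passed the adjusted threshold.

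F3+ progenitors were the smallest of the progenitor classes. No regulator met both limits, with edgeR or DESeq2, against 0.0547% of 7308 genes, none of the 7 tested was free of overlap, against 4.75%, and none had an unadjusted p under 0.05 with either tool, against 8.69%. Cebpa read 10.9, 15.7, 16.0 and 17.4 CPM in Ad-Lib and 21.5, 10.9, 39.0 and 24.6 CPM in TAN. TAN 6, the shallow library, was highest, and the interval of the log2 change ran from -0.17 to 1.33. Dlk1, with the values given above, had an interval from -1.10 to 2.19, so that changes of over 4-fold lie within it in the upward direction. The cluster led by Mfap4 held 29.1% ± 18.5 of F3+ cells in Ad-Lib and 13.2% ± 8.13 in TAN (SD, n = 4 libraries). The part of this makeup in the change of Dlk1 was not tested. The 7 pathway lists held no call by edgeR in this class and no adjusted p under 0.05, while 6 of 9 glucocorticoid-induced genes, 5 of 15 immediate early genes and 4 of 15 other activators had an unadjusted p under 0.05.

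Dlk1 was under the count filter in Icam1+ progenitors. It was at 0 in all 4 Ad-Lib libraries and at 0.523, 2.16, 1.15 and 0.282 CPM in TAN, between 1 and 6 UMIs. The groups were separate, but the level in the lowest TAN library came from 1 UMI, and with so few UMIs no fold is given.

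The share of cells with a UMI, at 2000 UMIs per cell, was compared by an exact two-sided permutation test over the 70 assignments of the libraries. Of 40 tests, 4 reached the smallest p the design allows, 0.0286, and the lowest Benjamini-Hochberg adjusted p was 0.286, so none passed. They were Cebpb in Icam1+ progenitors (36.3% ± 2.95 in Ad-Lib and 29.2% ± 0.151 in TAN), Dlk1 in the same cells (0% and 0.277% ± 0.238), Cebpb in endothelial cells (17.4% ± 1.37 and 12.7% ± 1.98) and Ebf1 in endothelial cells (40.3% ± 3.29 and 47.3% ± 1.77), each as mean ± SD over 4 libraries. Adipocyte-rich droplets could not be compared at 2000 UMIs, since 409 of 432 Ad-Lib and 477 of 534 TAN droplets held fewer than 2000 UMIs. At 1000 UMIs per cell, where they could be, 9 of 50 tests reached the smallest p, and without thinning 11 of 50, with lowest adjusted p values of 0.159 and 0.130 by exact permutation, so that again none passed. With this smallest p, an adjusted p under 0.05 was hardly within reach of the design. In the droplets at 1000 UMIs these were Cebpb (31.1% ± 5.49 of Ad-Lib and 20.98% ± 2.33 of TAN droplets), Cebpd (16.1% ± 3.36 and 6.39% ± 2.67), Ebf1 (17.7% ± 5.47 and 8.12% ± 1.34) and Zfp423 (4.43% ± 1.81 and 0.692% ± 0.521), each lower in TAN. Without thinning, Cebpd and Ebf1 were the ones of these at the smallest p in the droplets.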

How the data were processed

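Single-cell 3' RNA-seq libraries (10x Genomics) of the SVF were deposited as UMI counts per gene and cell, which the authors made with Cell Ranger on GRCm38 (mm10), as filtered matrices. The submitters' processing notes name Cell Ranger 3.0.2 while the file headers name a later version, so the version is uncertain. Cells with 700 to 30000 UMIs, 200 to 8000 genes and at most 10% mitochondrial UMIs were kept, normalised, and clustered with scanpy 1.11.5 (2000 variable genes without the 10 regulators, 30 components, 20 neighbours, Leiden resolution 1). Clusters were named from marker lists, progenitors after a second clustering. Doublets were kept, and removing 1351 likely ones was an alternative. For each class, the counts of a library's cells were added up, and these sums were tested with edgeR 4.0.16 (R 4.3.3), DESeq2 1.42.0 as an alternative, and differences between classes with limma 3.58.1 on log2(CPM + 1). The edgeR and limma tests were tried on simulated data, while the clustering and the naming of classes were not. Low counts limit precision, and limits from a count of 0 (3 counts) cover counting error only. The genes named are the 10 regulators and up to 4 called genes per list and class, those with the lowest p. The regulators, lists and tests were chosen with earlier results of these data known.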

Additional observations from a re-analysis of the deposited data

Results flagged for a closer look

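In 5 of 85 groups of 4 libraries with at least 10 UMIs, 1 library stood apart from the other 3 by Dixon's criterion for its gap to the nearest of them over the range, and chance gives about 1 in 20. In F3+ progenitors Ebf1 was lowest in TAN 6, at 315 CPM against 437 for the next library, and Zfp423 was highest in Ad-Lib 7, at 21.9 CPM against 8.49. In endothelial cells Ad-Lib 5 was the highest of the Ad-Lib libraries for Pparg, at 235 CPM against 154, for Cebpa, at 35.0 CPM against 24.3, and for Zfp423, at 13.2 CPM against 8.09. Without Ad-Lib 5, none of these genes passed the test in endothelial cells.

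Ebf1 was higher in all TAN libraries in endothelial cells and lower in all of them in adipocyte-rich droplets, with log2 changes of 0.35 ± 0.08 and -0.89 ± 0.25. The difference of its log2 changes was -1.06 ± 0.21 and missed the threshold after adjustment (limma, adjusted p = 0.0846).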

How the results depend on the processing

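Over 35 changes of a regulator in a class, 652 values were computed under alternatives. Of these, 622 kept their side of the call rule, 22 lost a call, 8 gained one, and none reversed a called change. The 622 include 35 values with the other sign than the value as reported, with neither of them called. In Icam1+ progenitors 0 regulators were called as reported. Without the filter on low counts 1 was called, among 356 called of 17435 genes. It was Gata2 or Dlk1, which that filter leaves out. Leiden resolution 2 called 1 regulator and 233 of 10299 genes, no minimum fold 2 regulators, and leaving out 1 library 0 to 2. In endothelial cells, also with 0, 1 was called with Leiden resolution 2, 1 with no minimum fold, and 0 to 1 when 1 library was left out. Leiden resolution 2 called 233 of 10398 genes there. In adipocyte-rich droplets, with 4, DESeq2 called 2, no filter on low counts 1, marker gates 1, marker gates with the mitochondrial limit at 20% 1 and Leiden resolution 2 called 2, and leaving out 1 library gave 2 to 4. Over all genes in the droplets, 163 of 1780 were called as reported, 88 of 12684 with DESeq2 and 148 of 12684 without the filter. Marker gates called 203 of 1958 genes, or 229 of 2505 at 20%, and Leiden resolution 2 called 149 of 3075. Leaving out 1 library gave 110 to 173 genes. In Dpp4+ and F3+ progenitors and in the differences between subsets, 0 were called under all alternatives run. The shares of cells gave 0 as well, but their smallest p of 0.0286 (exact permutation) left an adjusted p under 0.05 hardly within reach, so this says nothing about stability. The marker gates at 20%, the single clusters and the difference between droplets and endothelial cells were chosen after seeing the data. The F3+ cluster led by Mfap4 could not be fitted alone. The cause of these changes was not tested.

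Counts over all genes moved more than 1.5 times in several settings. Without the filter on low counts they were 212 in place of 76 in Dpp4+, 356 in place of 203 in Icam1+ and 163 in place of 4 in F3+ progenitors, and 394 in place of 244 in endothelial cells. DESeq2 gave 10 in F3+ progenitors and 88 in place of 163 in the droplets, marker gates 22 in F3+ progenitors, centring within libraries 1 there, and the mitochondrial limit of 20% gave 49 in Dpp4+ and 56 in Icam1+ progenitors. Leaving out 1 library gave 27 (without TAN 4) to 134 (without TAN 6) in Dpp4+ progenitors, and as few as 123 in Icam1+ progenitors and 147 in endothelial cells (both without TAN 2) and 0 in F3+ progenitors (without TAN 2, Ad-Lib 3 or TAN 4). Single clusters, which hold fewer cells, gave as few as 18 in Dpp4+ and 51 in Icam1+ progenitors and 0 in endothelial cells, while in F3+ progenitors the cluster led by Clec11a gave 7 and marker gates at 20% gave 21 in place of 4. No paired analysis was possible because the groups share no replicate numbers. Depth limits the droplets, where 5 of the 10 genes could be tested.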
